A study of Mus musculus with 8 samples.

Results

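The nuclear-encoded genes of oxidative phosphorylation (OXPHOS) were examined in mouse Hepa-1 cells treated with hexavalent chromium. They were taken as all protein-coding genes of the count table whose official symbol begins with Nduf, Uqcr, Atp5 or Cox followed by 4 to 8, together with Sdha, Sdhb, Sdhc and Sdhd. The rule itself uses gene symbols alone, although the set was picked with earlier results of these data known. It gave 93 genes of the 23403 in the table, of which 88 were among the 13619 genes with enough counts to be tested. The other 5 were Cox6a2, Cox6b2, Cox8b, Cox8c and Ndufa4l2, all of them isoforms restricted to certain tissues or conditions. The transcribed pseudogene Ndufs5-ps was left out.

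RNA-seq covered 2 libraries of Hepa-1c1c7 (Hepa-1) mouse hepatoma cells given 25 µM Cr(VI), as CrK2O4, in their medium for 90 minutes, beside 2 libraries of control cells that received no chromium. The labels of the control libraries do not say which chromium regimen they were grown for, and nothing states whether the 2 libraries of a group came from separate cultures, so that p-values measure the spread between these libraries, which may be technical. FAIRE-seq, which recovers the DNA that partitions to the aqueous phase after crosslinking and so marks open chromatin, covered 1 library each of cells under that same acute exposure, of cells kept for 20 passages at 0.5 µM Cr(VI), and of a control for each. All libraries came from the same cell line.

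Oxidative phosphorylation takes place in the inner mitochondrial membrane. Complex I accepts electrons from NADH and complex II from succinate, complex III passes them on to cytochrome c, and complex IV reduces oxygen. Complexes I, III and IV pump protons, and ATP synthase uses the gradient to make ATP. Most subunits are encoded in the nucleus and a few in mitochondrial DNA, which was not analysed here. NRF1, the ETS factor GABP, YY1 and the estrogen-related receptors are known to bind promoters of the nuclear genes. Hepatocytes rely on this pathway, whereas many tumor lines also run a high rate of glycolysis.

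Total counts per library ranged from 32319676 to 37696116. The controls were alike, with 83 tested genes apart by 2-fold or more, and the treated libraries were not, with 1404 such genes. Treated replicate 2 had a TMM factor of 0.897, against 1.03 to 1.04 in the other libraries. Levels are given as normalised CPM, the count of a gene scaled to a common library size with the TMM factors. Alb, the albumin of hepatocytes, was at 3666.8 and 3549.5 CPM in treated and 904.63 and 947.53 CPM in control libraries (log2 fold change 1.96 ± 0.20, adjusted p = 0.0317, edgeR). The summed level of 13 hepatocyte and hepatoma markers was 7394 and 8698 CPM in treated and 4175 and 4311 CPM in control libraries. Most of the difference was in Alb. Of the 10 tested, 8 had both treated libraries above both controls, beside 32.2% of all genes tested. For 7 fibroblast markers the sums were 1287 and 1415 CPM in treated and 701.7 and 713.0 CPM in control libraries, with Thy1 at 0 and most of the difference in Dcn, a matrix proteoglycan. For 7 macrophage and leukocyte markers they were 44.96 and 63.53 CPM in treated and 63.08 and 63.02 CPM in control libraries, with Cd3e at 0. Csf1r made up most of each sum, at 37.035 and 37.909 CPM in treated and 50.136 and 49.569 CPM in control libraries. Cd68 was at 5.0838 and 22.062 CPM in treated and 7.7663 and 8.287 CPM in control libraries. For 5 endothelial markers the sums stayed at or below 2.589 CPM, with Cdh5 at 0. Pecam1 was at 1.7734 and 2.2441 CPM in treated and 0.48899 and 0.48597 CPM in control libraries.

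No OXPHOS gene passed the test between treated and control cells. The count was 0 of 88, and 4.63% of all genes tested passed (two-sided quasi-likelihood test of edgeR, adjusted p under 0.05 after Benjamini-Hochberg). At an unadjusted p under 0.05 there were 8 of 88, beside 30.7% of all genes, and DESeq2 called 2. These 8 were Cox7a2l, Atp5e, Cox7b2, Ndufaf3, Sdhc, Ndufa7, Ndufa1 and Cox4i2. The median fitted log2 fold change over the 88 genes was 0.159 and that over all tested genes was -0.005. Of the 88, 61 had a fitted value above 0 and 27 one below, from -1.816 for Cox7b2 to 1.612 for Cox4i2, both near the lower limit of detection.

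The genes set the treated libraries apart from each other. Treated replicate 2 was above treated replicate 1 in 83 of the 88 genes, whereas this held for 49.4% of all genes tested. In 48 of the 88 genes treated replicate 1 lay below both controls and treated replicate 2 above both, an order found in 10.4% of all genes. The opposite order occurred in 0 of the 88, and in 12.6% of all genes. Both treated libraries were above both controls in 23 genes, beside 32.2% of all genes, and below both in 10, beside 34.0%. Relative to the mean of the controls, with 0.5 CPM added to each value, the median of the 88 genes was -0.138 on the log2 scale in treated replicate 1 and 0.366 in treated replicate 2. The corresponding medians over all tested genes were 0.003 and -0.034. Summed over all genes tested, normalised CPM was 971400 in treated replicate 1 and 1115000 in treated replicate 2. In the controls it was 957700 and 963900. The OXPHOS genes were not compared with genes of like abundance.

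**Figure D1:**
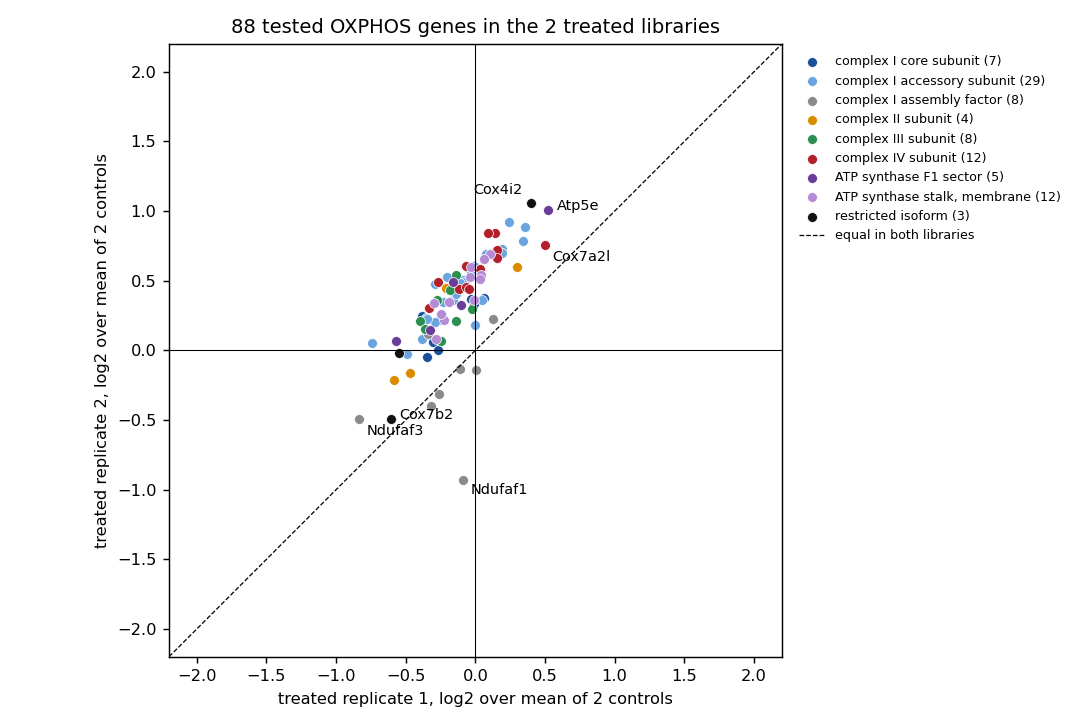
Each point is 1 of the 88 tested OXPHOS genes, placed by its log2 ratio over the mean of the 2 controls in treated replicate 1 (horizontal) and treated replicate 2 (vertical), with 0.5 CPM added to each value and colors for the role of the gene. The points lie above the dashed line of equal values in 83 of 88 genes, and the 5 below it are complex I assembly factors.

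The share of all counts that fell on the 93 genes showed the same order. It was 1.294% in treated replicate 1 (95% Wilson interval 1.291 to 1.298), 1.455% (1.451 to 1.459) and 1.476% (1.472 to 1.480) in the controls, and 1.626% (1.622 to 1.630) in treated replicate 2. The intervals cover counting error only. The treated libraries lay on either side of the controls, which were close together.

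Which treated library was kept decided the direction. Without treated replicate 1, 75 of the 88 genes passed, 69 higher and 6 lower, with a median log2 fold change of 0.378, and 77.6% of all genes passed. Without treated replicate 2, 60 passed, 13 higher and 47 lower, with a median of -0.142, beside 67.2% of all genes. In these fits the lone treated library is assumed to vary as the controls do. As shares of the 88 genes these counts are 85.2% and 68.2%.

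The level of the genes was compared per kilobase of the longest curated transcript, in normalised CPM per kb. Atp5b, the catalytic beta subunit of the F1 sector of ATP synthase (chr10:128083307-128090388 of GRCm38.p6, the build also called mm10), stood at the top. It was at 811.07 CPM per kb in treated replicate 1, 1262.8 in treated replicate 2, and 1197.0 and 1211.9 in the controls. Cox6c, a small subunit of complex IV, came next with 741.04 and 1204.0 CPM per kb in treated and 657.91 and 683.46 in control libraries. Assembly factors of complex I lay far below the subunits they help to join, and the highest of them, Ndufaf2, had 17.78 and 24.629 CPM per kb in treated and 23.44 and 21.994 in control libraries. Cox8c had no count in any library, which allows a level of up to 0.0796 to 0.0928 CPM in a library.

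**Figure D2:**
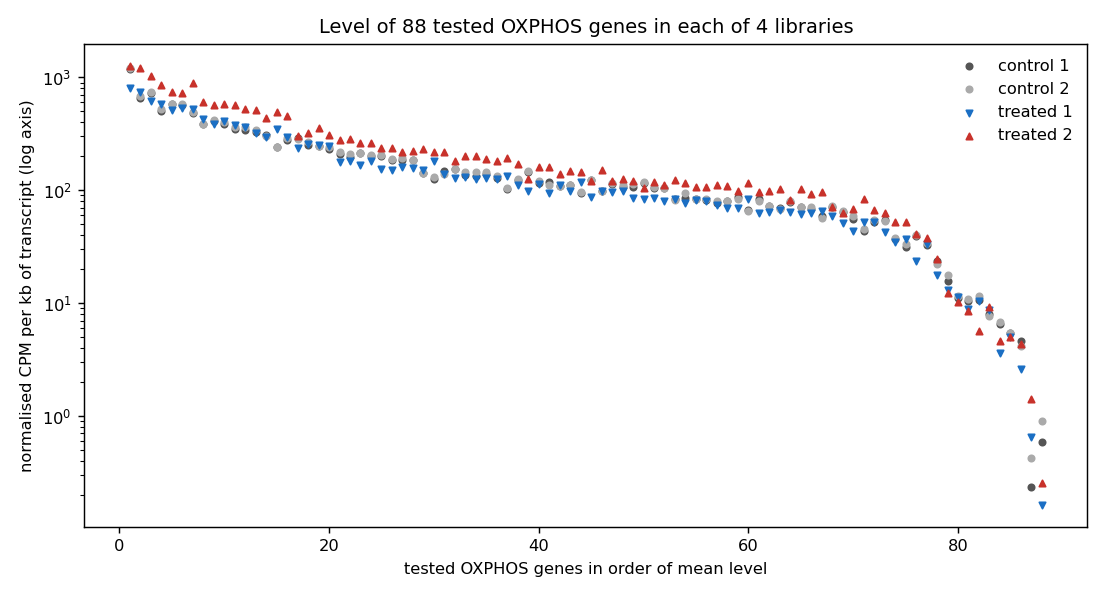
The 88 tested OXPHOS genes are ordered by mean level along the horizontal axis, and the vertical log axis gives normalised CPM per kb of transcript in each of the 4 libraries. Red triangles (treated replicate 2) form the upper edge over most of the range and blue triangles (treated replicate 1) the lower one, with the control circles close together between them.

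The 7 core subunits of complex I that are encoded in the nucleus carry the flavin and the iron-sulfur clusters, or lie next to them. Their median log2 fold change was -0.034, with 3 genes above 0 and 4 below. Without treated replicate 2 there was 1 above and 6 below, and without treated replicate 1 there were 6 above and 1 below. Ndufs1, the largest of the cluster-bearing subunits, had both treated libraries lower, with 149.85 and 184.50 CPM in treated and 188.98 and 192.47 CPM in control libraries. Its log2 fold change was -0.19 ± 0.14 (SE; adjusted p = 0.419, edgeR). The flavoprotein genes Ndufv1 and Ndufv2, which form the entry point of electrons from NADH, had fitted values of 0.18 ± 0.17 and -0.13 ± 0.14 with treated and control libraries overlapping. Ndufs3, Ndufs7 and Ndufs8 also overlapped, with fitted values of 0.17, -0.11 and -0.03.

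The 29 accessory subunits of complex I surround the core and stabilize it. Their median was 0.183, with 23 above 0 and 6 below (19 and 10 with no normalization beyond library size). Without treated replicate 2 the direction turned, with 8 above and 21 below and a median of -0.143, and without treated replicate 1 they were 28 and 1 with a median of 0.474. Treated replicate 2 exceeded treated replicate 1 in 29 of 29. Ndufa7 (chr17:33824572-33838316) was at 101.20 and 146.08 CPM in treated and 77.605 and 79.929 CPM in control libraries. Both treated libraries were higher, and the log2 fold change of 0.65 ± 0.20 did not pass the test (adjusted p = 0.128). Ndufa1, named after its values were seen, was at 41.498 and 56.690 CPM in treated and 33.021 and 32.381 CPM in control libraries (log2 fold change 0.59 ± 0.19, adjusted p = 0.131), and shares exon bases with Rnf113a1 on the other strand. Among the most abundant accessory subunits, Ndufb11 was higher in both treated libraries, at 137.00 and 210.02 against 130.04 and 130.16 CPM. Ndufb9 (124.82 and 179.63 against 139.07 and 139.98 CPM) and Ndufc2 (88.258 and 122.43 against 105.05 and 105.48 CPM) had the controls between the treated libraries. For Ndufs5 the value is uncertain, because the pseudogene Ndufs5-ps had 3063 and 3855 counts in treated and 3448 and 3905 in control libraries, more than the gene itself, and how reads were divided between them is not known.

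The 8 complex I assembly factors, which help to build the complex and are not part of it when finished, lay on the other side of 0. Their median was -0.209, with 1 above 0 and 7 below under each of the 4 scalings tried, and 2 above and 6 below when either treated library was left out. Both treated libraries were below both controls in 5 of 8, beside 34.0% of all genes. The treated libraries did not separate here as they did for the subunits, and treated replicate 2 was the higher one in 3 of 8. Ndufaf3 (chr9:108565587-108567436), an early assembly factor, was at 5.1725 and 6.6979 CPM in treated and 9.4921 and 9.7193 CPM in control libraries, the lowest fitted value outside the restricted isoforms (-0.70 ± 0.21, adjusted p = 0.119). Ndufaf1 was at 15.517 and 8.4241 CPM in treated and 15.849 and 17.188 CPM in control libraries, so that most of its fitted value of -0.46 ± 0.33 came from treated replicate 2. Ndufaf8 was at 6.473 and 6.1109 CPM in treated and 7.7375 and 8.6962 CPM in control libraries (-0.38 ± 0.18, adjusted p = 0.225). Ndufaf2 and Ndufaf7 overlapped with the controls, at -0.10 and -0.07. Ndufaf6 was the one with a value above 0, at 0.18 ± 0.16.

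The 4 genes of complex II, succinate dehydrogenase, differed in the sign of their fitted values, and none passed the test. Sdha, the flavoprotein that oxidizes succinate, was at 241.42 and 298.57 CPM in treated and 331.13 and 337.75 CPM in control libraries, with a log2 fold change of -0.31 ± 0.15 (adjusted p = 0.250). Sdhd, a membrane anchor, was at 125.65 and 163.23 CPM in treated and 186.05 and 191.78 CPM in control libraries (-0.39 ± 0.16, adjusted p = 0.196). Both genes were lower in both treated libraries. Sdhc, the other anchor, was higher in both, with 139.33 and 171.21 CPM in treated and 111.98 and 114.05 CPM in control libraries, and its value of 0.46 ± 0.14 did not pass the test (adjusted p = 0.126). Sdhb, the iron-sulfur subunit, was at 74.573 and 117.80 CPM in treated and 86.695 and 85.939 CPM in control libraries, on either side of the controls.

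The 8 complex III genes showed no separation of treated and control cells. All 8 overlapped, the fitted values ran from -0.084 to 0.240 around a median of 0.064 (-0.065 with no normalization beyond library size), and in 7 of 8 the controls lay between treated replicate 1 and treated replicate 2. Without treated replicate 2 all 8 fitted values were below 0, and without treated replicate 1 all 8 were above. Uqcrh, the hinge protein at the cytochrome c side, was at 139.95 and 175.53 CPM in treated and 138.59 and 146.58 CPM in control libraries. Uqcr10 was at 93.312 and 145.59 CPM in treated and 111.49 and 114.48 CPM in control libraries, and Uqcr11 at 67.302 and 103.30 against 87.615 and 90.364 CPM. Both are small structural subunits.

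Complex IV, cytochrome c oxidase, had the highest median of the complexes, 0.321, and 12 of 12 fitted values were above 0, or 11 of 12 with no normalization beyond library size, a scaling that moved the median of all genes to -0.114. Without treated replicate 2 the values were 6 above 0 and 6 below around a median of -0.008. Leaving out treated replicate 1 instead gave a median of 0.604, so the pattern rested on treated replicate 2. Both treated libraries were above both controls in 6 of 12, beside 32.2% of all genes. Cox7a2l (chr17:83501917-83514333), known as a factor that joins complexes III and IV into supercomplexes, had the lowest adjusted p of all the genes. It was at 209.50 and 250.20 CPM in treated and 145.63 and 149.83 CPM in control libraries, with a log2 fold change of 0.64 ± 0.14 (adjusted p = 0.0737, edgeR; 0.0188 by DESeq2). Both treated libraries lay well above both controls. Cox6c was at 372.74 and 605.60 CPM in treated and 330.93 and 343.78 CPM in control libraries (0.54 ± 0.27, adjusted p = 0.246). Cox8a, at 284.43 and 481.07 against 265.00 and 269.79 CPM, had a fitted value of 0.52 ± 0.28. In both, treated replicate 1 was only slightly above the controls. Ndufa4, first described in complex I and now counted in complex IV, was at 212.84 and 303.13 CPM in treated and 192.09 and 190.65 CPM in control libraries (0.43 ± 0.20).

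The isoform pairs of complex IV were read through the common member in each case. Cox4i1, the general form of subunit 4, was at 454.80 and 771.05 CPM in treated and 545.80 and 549.63 CPM in control libraries, while Cox4i2, a form known from lung and from low oxygen, had 16 and 30 counts in treated and 6 and 12 in control libraries. Its value of 1.61 ± 0.58 did not pass the test (adjusted p = 0.152). Cox7b was at 125.97 and 180.70 CPM in treated and 128.40 and 135.20 CPM in control libraries, and Cox7b2, a testis form, had 3 and 4 counts in treated and 11 and 19 in control libraries (-1.82 ± 0.50, adjusted p = 0.106). Cox7a1, the form of heart and muscle, had 32 and 46 counts in treated and 59 and 60 in control libraries, beside Cox7a2 at 86.041 and 120.73 CPM in treated and 86.781 and 90.876 CPM in control libraries. Cox6a1 was at 309.55 and 457.98 CPM in treated and 272.54 and 283.42 CPM in control libraries, and its muscle form Cox6a2 had 0 to 3 counts in any library. Cox6b1 was at 180.36 and 266.57 CPM in treated and 195.28 and 197.10 CPM in control libraries, and the testis form Cox6b2 had 0 to 4 counts. Cox8b had 1 count in all, and Ndufa4l2, a form known to rise in low oxygen, had 4.

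**Figure D3:**
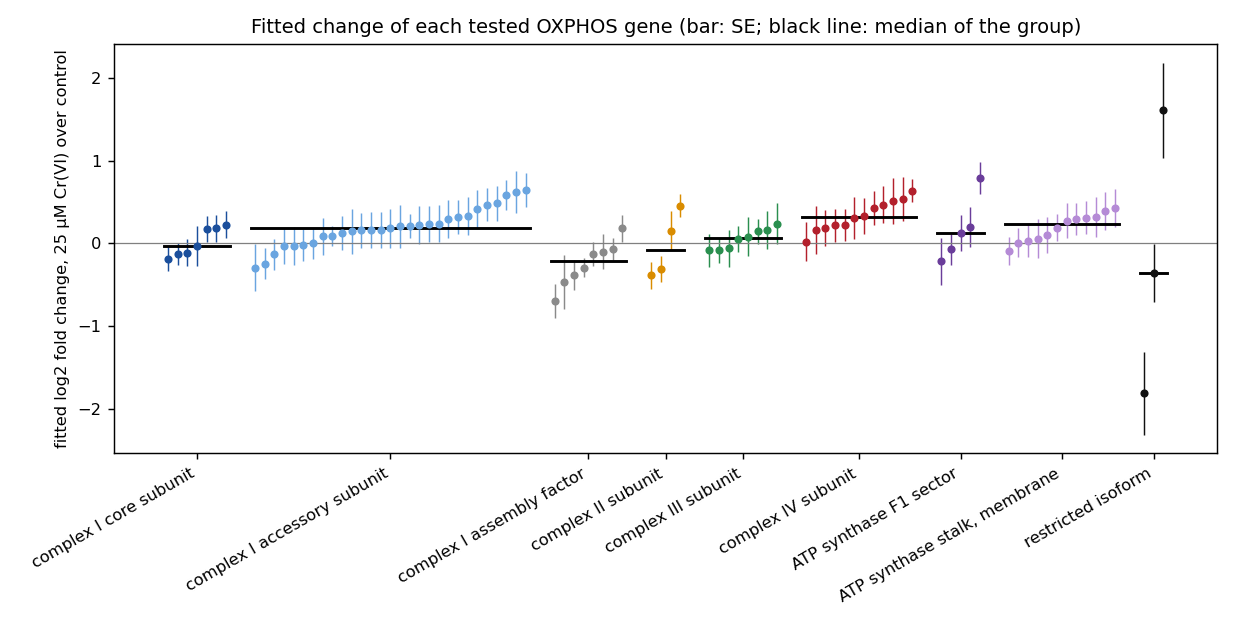
Fitted log2 fold changes of the 88 tested OXPHOS genes (points) with their standard errors (bars), grouped by role, with the median of each group as a black line. The complex IV points all lie above 0, 7 of the 8 complex I assembly factors lie below it, and the 2 most distant points are the low-count isoforms Cox4i2 and Cox7b2.

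The 17 genes of ATP synthase had a median of 0.190, with 14 above 0 and 3 below (10 and 7 with no normalization beyond library size). Without treated replicate 2 the count turned to 5 above and 12 below, and without treated replicate 1 it was 17 and 0. Atp5e (chr2:174461075-174464101), the small epsilon subunit of the F1 sector, was at 144.42 and 202.73 CPM in treated and 100.19 and 100.57 CPM in control libraries. Both treated libraries were higher, and the log2 fold change of 0.79 ± 0.19, the highest apart from Cox4i2, missed the threshold (adjusted p = 0.0895, edgeR; 0.0115 by DESeq2). The large F1 subunits had no such separation. Atp5b was at 1524.0 and 2372.8 CPM in treated and 2249.2 and 2277.2 CPM in control libraries (-0.22 ± 0.28), and Atp5a1, the alpha subunit, at 1303.6 and 1756.6 against 1380.9 and 1421.8 CPM (0.13 ± 0.22), with the controls between the treated libraries in both.

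The membrane ring of ATP synthase is built from subunit c, which 3 genes encode with the same mature protein. Atp5g2 was higher in both treated libraries, at 245.86 and 370.94 CPM against 224.27 and 233.70 CPM in controls (0.43 ± 0.23, adjusted p = 0.273). Atp5g3, the most abundant of them, was at 368.55 and 535.48 CPM in treated and 419.47 and 423.00 CPM in control libraries, and Atp5g1 at 122.81 and 190.61 against 148.83 and 152.54 CPM. For these genes the controls lay between the treated libraries. Atp5j2, the f subunit of the membrane sector, was at 174.77 and 247.23 CPM in treated and 166.08 and 173.49 CPM in control libraries (0.31 ± 0.20, adjusted p = 0.343). Atpif1, the inhibitor that stops the enzyme from hydrolysing ATP, is not among the 93 by its symbol in the annotation and is given beside them, at 70.139 and 86.382 CPM in treated and 64.431 and 64.710 CPM in control libraries (0.28 ± 0.14).

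Related genes were described in the same way. Of 38 assembly factors of the other complexes or of complex I with other symbols, 0 passed the test, beside 4.63% of all genes. Their median was -0.241, and 26 had a fitted value below 0. Both treated libraries were below both controls in 20 of the 38, beside 34.0% of all genes. Examples were Coa6, needed for the copper site of complex IV, at 11.113 and 7.2157 CPM in treated and 17.258 and 18.825 CPM in control libraries (-0.98 ± 0.26, adjusted p = 0.0992), and Cox10, which makes heme for complex IV, at 22.907 and 20.094 against 33.999 and 32.815 CPM (-0.64 ± 0.14, adjusted p = 0.0740). Sco2, a copper chaperone of complex IV, was higher in both treated libraries, at 44.395 and 49.371 against 30.375 and 33.301 CPM. In 7 tested electron carriers and other subunits 0 passed, and the controls lay between the treated libraries in 6.

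Among 14 regulators of these genes 0 passed, and the median was 0.040. Ppargc1a, a coactivator that promotes mitochondrial biogenesis, was at 30.414 and 19.645 CPM in treated and 43.721 and 42.560 CPM in control libraries (-0.78 ± 0.24, adjusted p = 0.123). Gabpb1, the activating partner of GABP, was at 43.774 and 74.954 CPM in treated and 35.351 and 34.018 CPM in control libraries (0.77 ± 0.28, adjusted p = 0.157). Nrf1 and Esrra had fitted values of -0.12 and 0.00. In 13 enzymes of the TCA cycle 0 passed and the median was 0.024. They split between the treated libraries as the OXPHOS genes did, with treated replicate 2 above treated replicate 1 in 12 of 13 and the controls between them in 10 of 13. In 17 genes of glycolysis and glucose uptake 16 fitted values were below 0, with a median of -0.397, and 1 gene passed, beside 4.63% of all genes. Relative to the controls the median was -0.692 in treated replicate 1 and -0.081 in treated replicate 2, which was the higher one in 15 of 17. The gene that passed was Hk1, a hexokinase, which fell from 238.80 and 244.42 CPM in controls to 144.06 and 151.50 CPM in treated libraries (log2 fold change -0.71 ± 0.11, adjusted p = 0.0467).

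Transcript length was set beside the difference between the treated libraries. The 88 genes are short, with a median of 767.5 bp for the longest curated transcript against 2867 bp over all tested genes. Over the 88 genes, Spearman's rho of length with the ratio to controls was -0.117 in treated replicate 1 and -0.350 in treated replicate 2, and over 13562 genes with a length it was 0.017 and -0.226. The ratio of control replicate 2 to control replicate 1 had a rho of 0.127 over the 88 genes and -0.208 over the 13562 genes. A rho does not give the size of a trend, and the cause was not tested. Genes are not independent replicates, and these values are a description. Within transcripts up to 600 bp, the medians in treated replicate 1 were -0.070 for 29 OXPHOS genes and 0.068 for all 399 genes of that length, and in treated replicate 2 they were 0.526 and 0.346. From 1000 to 1500 bp they were -0.139 for 15 OXPHOS genes and -0.044 for all 1320 genes in treated replicate 1, and 0.403 and 0.148 in treated replicate 2. In both ranges the OXPHOS genes lay below genes of like length in treated replicate 1 and above them in treated replicate 2. From 2000 to 3000 bp the order in treated replicate 2 was not seen, with medians there of 0.002 for 8 OXPHOS genes and 0.015 for all genes. With a length offset in the model, the median of the OXPHOS genes was 0.123 and that of all genes 0.027, and 4 OXPHOS genes passed (Ndufa1, Cox7a2l, Ndufa7 and Atp5e, all higher), beside 8.66% of all genes.

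**Figure D4:**
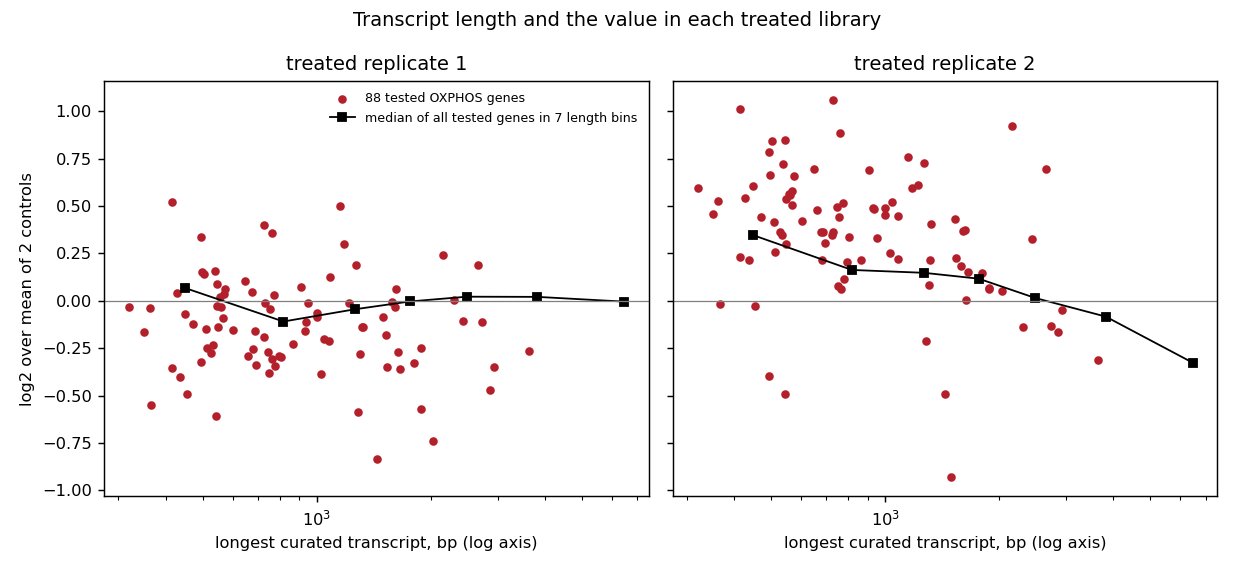
The log2 ratio over the mean control (vertical) is plotted against the longest curated transcript in bp (horizontal, log axis) for the 88 tested OXPHOS genes (red) in treated replicate 1 (left) and treated replicate 2 (right), with the medians of all tested genes in 7 length bins in black. Against the median of their length bin, 63 of the 88 genes lie lower on the left and 64 lie higher on the right.

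Other ways of testing called few of the genes. With the shared replicate number as a block, 6 genes passed beside 21.8% of all genes, namely Cox7a2l, Atp5e, Ndufa7, Cox4i2 and Ndufb8 higher and Cox7b2 lower. Ndufb8, an accessory subunit of complex I named after its values were seen, was at 113.62 and 182.15 CPM in treated and 94.260 and 97.756 CPM in control libraries. DESeq2 called Cox7a2l and Atp5e, both higher, beside 15.2% of all genes. Each of these shares was below its background.

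The list for 25 µM Cr(VI) held a peak centred within 1000 bp of a TSS for 2 of the 93 genes, Ndufs7 and Atp5j2, beside 1.13% of protein-coding genes of the count table. Within 5000 bp Sdhb and Ndufv2 were added, giving 4 genes beside 2.88%. The list for 0.5 µM Cr(VI) held 1 gene within 1000 bp, Sdhc, beside 0.954%. Each list holds peaks of treated cells called against their control. A gene without such a peak may still have open chromatin at its TSS in both. Counts this small are a description and show nothing particular to these genes. There was 1 library per condition, so these peaks have no replicate check, and the depth behind them is unknown because the lists hold no read counts. The authors' score is -log10 of the p-value from MACS, multiplied by 10.

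**Figure D5:**
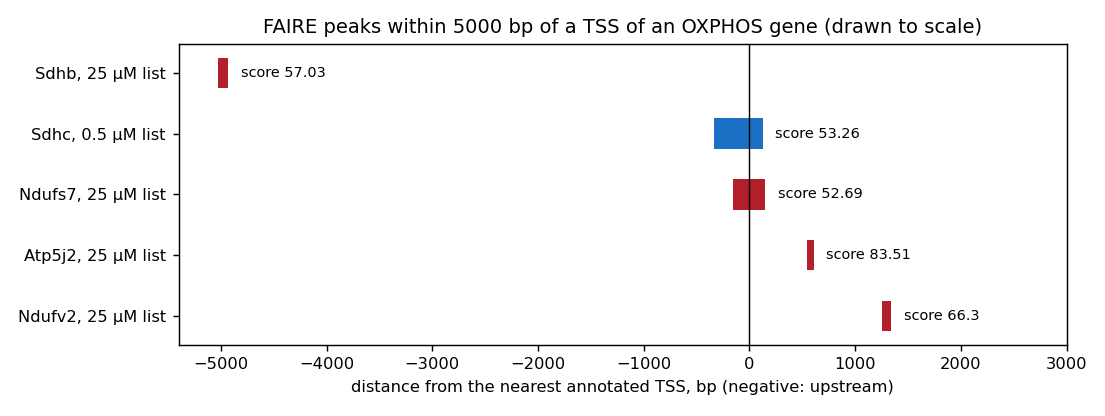
FAIRE peaks within 5000 bp of the TSS of an OXPHOS gene, drawn to scale by distance from the nearest annotated TSS in bp, red for the 25 µM list and blue for the 0.5 µM list, with the authors' peak score. Ndufs7 and Sdhc have peaks that span a TSS, and those of Atp5j2 and Ndufv2 lie downstream, in introns.

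The peak at Ndufs7, a core subunit of complex I with an iron-sulfur cluster, was at chr10:80248950-80249255, 306 bp wide with a score of 52.69. Its centre lay 2 bp from the TSS of a predicted transcript and upstream of the curated one. The interval also overlaps the tRNA genes n-TNgtt7 and n-TFgaa3, so that the peak cannot be assigned to Ndufs7 alone. The peak at Atp5j2 was at chr5:145190933-145190999, 67 bp wide with a score of 83.51, in an intron and centred 575 bp downstream of the TSS. The peak at Sdhc from the 0.5 µM list was at chr1:171150515-171150976, 462 bp wide with a score of 53.26, centred 106 bp upstream of the TSS of a predicted transcript. Expression under the 0.5 µM regimen was not analysed here, so the Sdhc peak has no expression value of its own regimen beside it. At 25 µM, Ndufs7 was at 48.858 and 63.146 CPM in treated and 59.829 and 61.283 CPM in control libraries, on either side of the controls, and Atp5j2 was slightly higher in both treated libraries, as given above.

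The sequences of these peaks were read from GRCm38.p6 on the strand of the gene. They are shown because, among the peaks called against control, they lie nearest to a TSS of an OXPHOS gene. For Ndufs7 they cover chr10:80248953-80249252 on the plus strand, for Atp5j2 the whole peak on the minus strand, and for Sdhc chr1:171150604-171150903 on the minus strand, which ends at the base before the curated TSS. Capitals mark matches on either strand to the motifs listed further on.
Ndufs7: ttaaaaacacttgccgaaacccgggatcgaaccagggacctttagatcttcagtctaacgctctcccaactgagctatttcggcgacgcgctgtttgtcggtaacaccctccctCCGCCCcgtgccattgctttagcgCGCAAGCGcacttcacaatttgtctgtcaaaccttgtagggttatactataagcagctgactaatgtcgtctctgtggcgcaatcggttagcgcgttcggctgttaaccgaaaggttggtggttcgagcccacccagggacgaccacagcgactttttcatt
Atp5j2: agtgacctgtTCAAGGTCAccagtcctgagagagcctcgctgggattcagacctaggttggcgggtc
Sdhc: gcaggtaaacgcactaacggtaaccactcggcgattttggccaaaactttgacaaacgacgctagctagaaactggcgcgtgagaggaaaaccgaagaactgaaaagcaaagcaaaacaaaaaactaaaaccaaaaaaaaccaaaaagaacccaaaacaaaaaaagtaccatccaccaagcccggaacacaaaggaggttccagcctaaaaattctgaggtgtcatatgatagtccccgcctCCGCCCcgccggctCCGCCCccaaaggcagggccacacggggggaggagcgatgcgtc

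The Ndufs7 peak held 1 match to the NRF1 motif CGCANGCG, found in 0.272% of the 2945 peaks of the 25 µM list, and 1 to the SP1 motif GGGCGG, found in 4.58%. The Atp5j2 peak held 1 match to the motif TCAAGGTCA of estrogen-related receptors, found in 0.340% of those peaks. Peaks differ in length and in distance from a TSS, and these shares are corrected for neither. The Sdhc peak held 2 matches to GGGCGG, found in 19.7% of the 860 peaks of the 0.5 µM list, and 1 to the YY1 motif AAGATGGC, found in 4.07%, which lies downstream of the curated TSS and outside the stretch shown. No exact match to the AP-1 motif TGANTCA, the only form searched, was in the 3 peaks as deposited, and 14.4% of the 25 µM peaks and 29.1% of the 0.5 µM peaks held one. The matches shown do not overlap each other.

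The promoters, from 250 bases before to 50 after each start in the RefSeq table for GRCm38.p6, matched 76 of the 93 genes with 81 promoters. The NRF1 motif CGCANGCG was in 39.5% of them, beside 11.7% of 20007 promoters of protein-coding genes. The ETS motif CCGGAAG was in 23.5% beside 12%, the YY1 motif AAGATGGC in 13.6% beside 3.16%, and the motif TCAAGGTCA in 2.47% beside 0.330%. The SP1 motif GGGCGG was in 44.4% beside 48.2% and the AP-1 motif TGANTCA in 8.64% beside 7.13%. Both strands were searched. A match is a description of the letters and no evidence that a factor was bound.

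The 250 bases upstream of a start are shown for the genes called by the length-offset fit or by DESeq2 that lie within the rule for named genes, with matches to the same motifs in capitals. Their positions are chr17:83514334-83514583 on the minus strand for Cox7a2l, chr2:174464102-174464351 on the minus strand for Atp5e, and chr17:33824395-33824644 on the plus strand for the downstream one of the annotated starts of Ndufa7. They differ in what they hold: Ndufa7 has the NRF1 motif, Atp5e has the ETS motif and 2 SP1 matches, and Cox7a2l has 1 SP1 match.
Cox7a2l: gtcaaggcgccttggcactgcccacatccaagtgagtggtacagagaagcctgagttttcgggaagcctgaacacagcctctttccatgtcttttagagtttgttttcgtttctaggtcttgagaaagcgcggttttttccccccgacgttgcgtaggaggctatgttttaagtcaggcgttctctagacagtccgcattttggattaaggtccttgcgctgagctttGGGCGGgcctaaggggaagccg
Atp5e: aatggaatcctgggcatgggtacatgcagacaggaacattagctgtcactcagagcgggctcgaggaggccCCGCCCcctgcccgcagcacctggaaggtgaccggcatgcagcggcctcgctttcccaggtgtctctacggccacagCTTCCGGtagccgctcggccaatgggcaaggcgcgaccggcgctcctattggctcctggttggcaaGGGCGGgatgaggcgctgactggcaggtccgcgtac
Ndufa7: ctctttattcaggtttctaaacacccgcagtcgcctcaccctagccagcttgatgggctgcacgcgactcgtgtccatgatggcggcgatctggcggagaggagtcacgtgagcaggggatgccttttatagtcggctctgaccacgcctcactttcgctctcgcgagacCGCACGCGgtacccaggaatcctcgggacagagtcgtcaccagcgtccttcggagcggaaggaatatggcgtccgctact

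Of the 93 genes, 17 share exon bases with a gene on the opposite strand and 3 with one on the same strand. Among them, Atp5j overlaps Gabpa, the gene for the DNA-binding subunit of GABP. Whether counting used the strand of the reads is not given in the sources used here. Reads in the shared bases of such pairs therefore cannot be told apart. A further 18 annotated pseudogene copies of these genes have no row in the count table, and how reads that match both a gene and such a copy were counted is not known.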

How the data were processed

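The authors deposited raw read counts for each Entrez gene, made after alignment to mm10 with TopHat; base calls used CASAVA 1.8 per the submitters' processing notes. The counting tool, annotation and strand setting are not given in the sources used here. The authors' peak score comes from MACS at default settings after BWA alignment, 1 treated against 1 control library. The files used hold no columns of the authors' own comparisons.

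Of 23403 IDs, 23305 matched a RefSeq symbol. The tested genes passed edgeR's filterByExpr and were fitted with edgeR's quasi-likelihood test (TMM factors, 2 treated against 2 control libraries, two-sided, Benjamini-Hochberg adjustment over 13619 genes, threshold 0.05), after a check on simulated data. CPM use the TMM factors, and an upper limit for a count of 0 is 3 counts. Wilson intervals have a level of 95%. A peak was assigned by the distance of its centre to any RefSeq TSS.

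The genes named are those called, the core subunits of complex I, complex II, the 3 most abundant members of each other class, isoform groups, members with a FAIRE peak within 1000 bp of a TSS, the ATP synthase inhibitor, and the 3 highest and 3 lowest fitted values. The members and lists were chosen with earlier results of these data known. Examples from the related lists were chosen after their values were seen. Some items that the rule names are not reported here. Alternatives were a replicate block, scaling by library size alone, size factors of DESeq2, upper-quartile factors, no filter on low counts, a transcript length offset (loess span 0.5), DESeq2, each library left out, and other windows, transcripts and scores for peaks. The tests ran in edgeR 4.0.16 and DESeq2 1.42.0 under R 4.3.3, and tables and figures were made with pandas 2.3.3 and matplotlib 3.10.9 under Python 3.11.15.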

Additional observations from a re-analysis of the deposited data

How the results depend on the processing

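The number of OXPHOS genes called was 0 in the reported fit, with no normalization beyond library size, size factors of DESeq2, upper-quartile factors and no filter on low counts. It was 4 with the transcript length offset, 2 by DESeq2, and ranged from 0 to 75 when each library was left out, with 75 without treated replicate 1 and 60 without treated replicate 2. The median log2 fold change ran from 0.026 (no normalization beyond library size, where the median of all genes was -0.114) to 0.183 (upper-quartile factors) with all 4 libraries, and from -0.142 to 0.378 with 1 left out. With the replicate block 6 genes were called and the median was 0.133. The labels give the same replicate numbers to both groups but do not say what a number marks. The deviations of same-numbered libraries correlated at 0.0909 over 13619 genes. With 2 libraries per group this value cannot show whether same-numbered libraries shared a culture or a batch.

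The fitted value changed sign for Ndufc2 with the replicate block (-0.018), no filter (-0.03), the length offset (-0.006) and no normalization (-0.127), and with no normalization also for Ndufb9 (-0.004), Uqcr10 (-0.054), Atp5g3 (-0.029) and Atp5g1 (-0.077). Other sign changes came with 1 library left out. Each gene listed next changed sign without a treated library, and Ndufc2 also without a control. Their log2 fold changes over these fits ranged as follows: Ndufv1 -0.037 to 0.378, Ndufs8 -0.393 to 0.26, Sdhb -0.212 to 0.459, Ndufs3 -0.013 to 0.342, Ndufv2 -0.275 to 0.014, Ndufs7 -0.312 to 0.07, Ndufb9 -0.162 to 0.375, Ndufc2 -0.256 to 0.228, Ndufaf2 -0.353 to 0.129, Ndufaf7 -0.134 to 0.001, Uqcrh -0.029 to 0.309, Uqcr10 -0.278 to 0.375, Uqcr11 -0.405 to 0.225, Cox4i1 -0.27 to 0.504, Atp5b -0.572 to 0.078, Atp5a1 -0.106 to 0.336, Atp5g3 -0.195 to 0.356, Cox6b1 -0.123 to 0.452, Cox7a2 -0.049 to 0.452, Cox7b -0.068 to 0.465, Atp5g1 -0.297 to 0.349. The cause was not tested.

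For FAIRE peaks of the 25 µM list, 1 gene remained within 500 bp, 4 were found within 5000 bp, and 0 at a score of at least 100. For the 0.5 µM list 0 were found at a score of at least 100.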
